A study of Mus musculus with 2 samples.

Results

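The 10 S100A genes measured here, S100a3, S100a4, S100a6, S100a8, S100a9, S100a10, S100a11, S100a13, S100a14 and S100a16, were taken by gene name from 24323 named genes on a mouse expression array. They were compared between tooth and skin from wild-type mice at postnatal day 0, the age on the labels, whereas the study's methods give a stage of P1. The comparison asks which transcripts set a tooth apart from skin, another organ that forms from ectoderm. Total RNA from whole tissue was labelled with a single dye and hybridised to 1 tooth array and 1 skin array. The labels name neither a mutant allele nor a treatment for either tissue, and they do not say how many animals gave RNA. With 1 array per tissue there was no replicate check, no test was run, and every difference below is one between these arrays. In such bulk RNA, fewer cells of a type and less RNA per cell cannot be told apart.

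S100 proteins are small calcium sensors. Each carries a pair of EF hands, helix-loop-helix folds that hold calcium, and most act as dimers that open a binding face for a target protein when calcium rises. Many of the family's genes lie side by side in the epidermal differentiation complex, a stretch of the genome that also encodes the proteins of the cornified envelope of skin. In skin, S100 proteins are known from keratinocytes, the hair cuticle and infiltrating neutrophils. Others act in the cytoskeleton and at membranes of most cells.

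The sequences of 3 probes are shown first because they hold a stretch of bases that several members share. Each probe is a 60-base oligonucleotide on the array, and its position is that of the file in mm9, plus strand of chromosome 3. Which exon or UTR each probe lies in was not analysed here. The capitals mark TTCNNGGAGT, a run noticed in these sequences and then searched for in all probes, on the strand as printed. In each of the 3 it lies in a frame that has no stop codon within the probe, which does not by itself show that the bases are coding.
S100a4, chr3:90409734-90409793: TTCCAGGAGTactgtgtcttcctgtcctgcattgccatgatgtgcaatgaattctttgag
S100a6, chr3:90418160-90418219: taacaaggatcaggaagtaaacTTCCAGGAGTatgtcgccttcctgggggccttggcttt
S100a8, chr3:90473778-90473837: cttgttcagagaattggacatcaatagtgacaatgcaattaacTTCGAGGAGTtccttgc
The run was found in 3 of the 12 probes of the members, in 1 probe of S100a1, and in 51 of all 55596 distinct probes (0.0917%). The probes had little else in common, and the longest run of bases that a member's probe shared with one of another S100 gene was between 7 and 11 of 60.

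All 10 members were well above background on both arrays, and none of their probes was saturated. Signals were scaled by subtracting each array's 75th percentile on the log2 scale, and the difference is skin minus tooth. By this measure 5 of the 10 were at least 2-fold higher in skin, S100a3, S100a14, S100a16, S100a6 and S100a4, where 14.2% of all 17409 measured genes were. S100a8 and S100a9, the subunits of calprotectin, were the 2 that were at least 2-fold higher in tooth, where 15.5% of all genes were. The other 3, S100a10, S100a11 and S100a13, lay within 2-fold. The members' median difference was 0.74 (log2), beside -0.04 over all genes. The extraction software's own error model gave a single member's difference an SD of 0.20 to 0.21, which covers the array and not the animals.

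**Figure D1:**
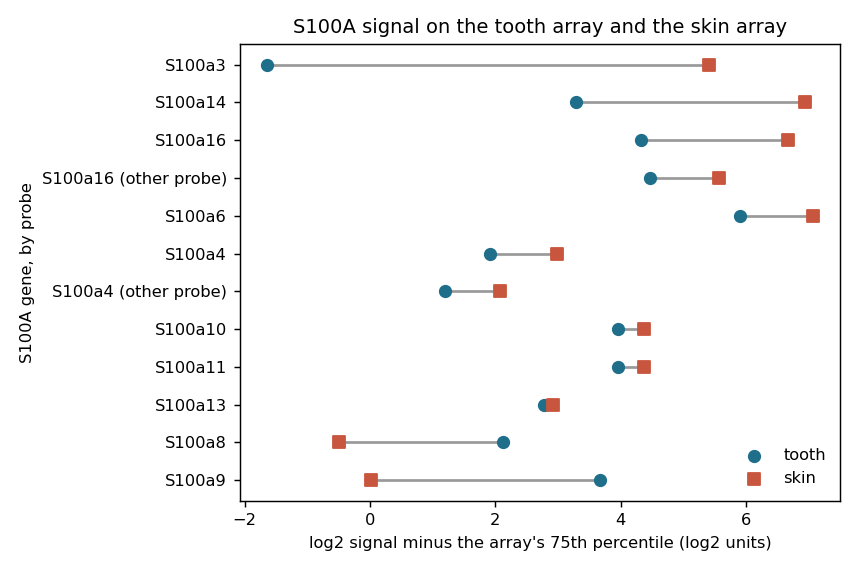
Scaled log2 signal (x axis) of each of the 12 probes for the 10 S100A genes (y axis) on the tooth array (circles) and the skin array (squares), with 1 array per tissue and a line joining the pair. S100a3 has the longest line, from -1.64 in tooth to 5.41 in skin, and the lines of S100a8 and S100a9 run the opposite way.

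Of the members known from the hair and the cornified layers, S100a3 differed most. S100a3 is a cysteine-rich protein of the hair cuticle that is modified by peptidylarginine deiminases. Its processed signal was 137 in tooth and 11780 in skin. After scaling this was a difference of 7.06 (SD of the error model 0.21), or 133-fold, and 99.2% of all measured genes had a lower difference. On the log2 scale its scaled signal was -1.64 in tooth, below that array's 75th percentile, and 5.41 in skin, far above it. The hair list ran the same way. All 7 of its genes, which encode hair keratins of the shaft and cuticle and the deiminase Padi3, were at least 2-fold higher in skin, with a median of 2.79. The list ran from Krt85, at 1.02, to Krt35, at 10.47. Krt85 passed the 2-fold line by less than its error-model SD of 0.20. Scaling to the median probe in place of the 75th percentile, which shifted all genes by -0.25, takes Krt85 below that line. How far the amount of hair follicle in the skin sample set the S100a3 difference was not tested.

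S100a14 is known mainly from epithelia, while S100a16 is found in many tissues. S100a14 gave 4198 in tooth, 33840 in skin and a difference of 3.64 (SD 0.20), or 12.5-fold. The brighter probe of S100a16 gave 8568 in tooth, 28180 in skin and a difference of 2.35 (SD 0.20), or 5.10-fold. Both were thus well above background in tooth and brighter still in skin. The other S100a16 probe gave 9519 and 13130, a difference of 1.10, so the direction held but the size depended on the probe. Among the epithelial markers, all 6 suprabasal keratinocyte genes were at least 2-fold higher in skin, with a median of 7.94, and Krt10 differed by 8.40. Basal keratinocyte genes differed less. In that list 2 of 6 were at least 2-fold higher in skin, Krt14 at 1.19 and Krt15 at 4.56, none passed 2-fold toward tooth, and the median was 0.83. What part the make-up of the epithelium had in the S100a14 and S100a16 differences was not tested.

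S100a4 and S100a6 are linked to cell motility and growth. S100a4 binds the heavy chain of non-muscle myosin and is often used as a marker of fibroblasts. S100a6, or calcyclin, binds the ubiquitin ligase adaptor Cacybp. S100a6 gave 25730 in tooth, 37240 in skin and a difference of 1.17 (SD 0.20), and S100a4 gave 1615 and 2190, a difference of 1.07 (SD 0.20). Both passed the 2-fold line by less than that error, and the other S100a4 probe, whose sequence is printed above, fell short of it at 0.89 (977 and 1166). With scaling to the median probe in place of the 75th percentile the values were 0.82 for S100a4 and 0.92 for S100a6, and with scaling to the spike-in transcripts they were 0.45 and 0.54. Fibroblast and mesenchyme genes did not share their direction. Of 7 such genes, 4 were at least 2-fold higher in tooth and none in skin, with a median of -2.43, led by Col1a1 at -3.17. The myosin gene Myh9 differed by -0.34 and Cacybp by -0.32.

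S100a10, S100a11 and S100a13 are linked to membranes and to protein release. S100a10 forms a tetramer with annexin A2 and, unlike most of the family, no longer binds calcium. It gave 6675 in tooth, 5712 in skin and a difference of 0.41 (SD 0.20). S100a11, which pairs with annexin A1, gave 6682 and 5701, a difference of 0.40 (SD 0.20). S100a13, a carrier in the release of Fgf1 and Il1a outside the classical secretory route, gave 2931 and 2093, a difference of 0.15 (SD 0.20). These 3 were brighter in raw signal on the tooth array and lay slightly above 0 after scaling. Their sign turned with the spike-in scaling, to -0.22, -0.22 and -0.48, and that of S100a13 also with the median scaling, to -0.10, so no direction is given for them.

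S100a8 and S100a9 were the members that were higher in tooth. Together they form calprotectin, which withholds zinc and manganese from microbes and is abundant in neutrophils, and which stressed keratinocytes also make. S100a8 gave 1870 in tooth, 196 in skin and a difference of -2.62 (SD 0.21), or 6.17-fold. S100a9 gave 5447 and 278, a difference of -3.66 (SD 0.21), or 12.6-fold. Only 3.68% of all measured genes had a lower difference than S100a8, and 1.67% a lower one than S100a9. Under every alternative scaling, background correction or source of values that was run, S100a8 stayed between -3.25 and -2.38 and S100a9 between -4.29 and -3.52.

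Several neutrophil markers ran the same way as this pair. Of 12 listed genes, 10 were above background in tooth and 5 in skin. Of the 11 measured on at least 1 array, 7 passed 2-fold toward tooth and 1 toward skin with dim values taken as measured. Over all genes 15.5% and 14.2% did. The list's median was -1.69, the value of Mmp8, which had no bound. The scaled tooth signal of Mmp8, -3.83, lay below the skin array's lowest signal well above background, -3.73. Mpo, which encodes the granule enzyme myeloperoxidase, led with a signal of 969 in tooth and none well above background in skin, a bound of at least 30.1-fold. The bound depended on the probe, and a dimmer Mpo probe with a signal of 48.2 in tooth gave at least 1.49-fold. Toward tooth, Ltf, which encodes lactoferrin, was higher by at least 4.61-fold, Retnlg by at least 7.49-fold and Ngp by at least 1.91-fold, while Camp differed by -1.86 and Lcn2 by -1.05. Other defining genes did not follow them. Elane differed by -0.07, with signals of 3068 in tooth and 1893 in skin. The receptor gene Csf3r differed by 0.41, with 49510 and 42350, the brightest of the list. Whether the bright Elane and Csf3r probes read neutrophil transcripts alone was not tested. Cxcr2 was above background on neither array, and Ly6g was at least 4.94-fold higher in skin. The summed scaled signal of the list was 128 in tooth and 161 in skin, most of it from the Csf3r probe. Csf3r and Elane were each set aside after their values were seen, and neither had followed S100a8 and S100a9. Without Csf3r the sums were 12.3 and 7.91, mostly from Elane, and without both genes they were 5.14 and 1.06. Because of that choice, the sums without these genes cannot show a direction of the list. The list's median depended on the treatment of dim values and reached -0.25 with another background correction. Of the macrophage genes, 2 of 6 were at least 2-fold higher in tooth, Cd68 at -1.79 and Lyz2 at -1.58, and none in skin. By sign alone the macrophage list was split, with 3 genes higher in skin and 3 in tooth, and its median was -0.005. The part of neutrophils or macrophages in the S100a8 and S100a9 differences was not tested.

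**Figure D2:**
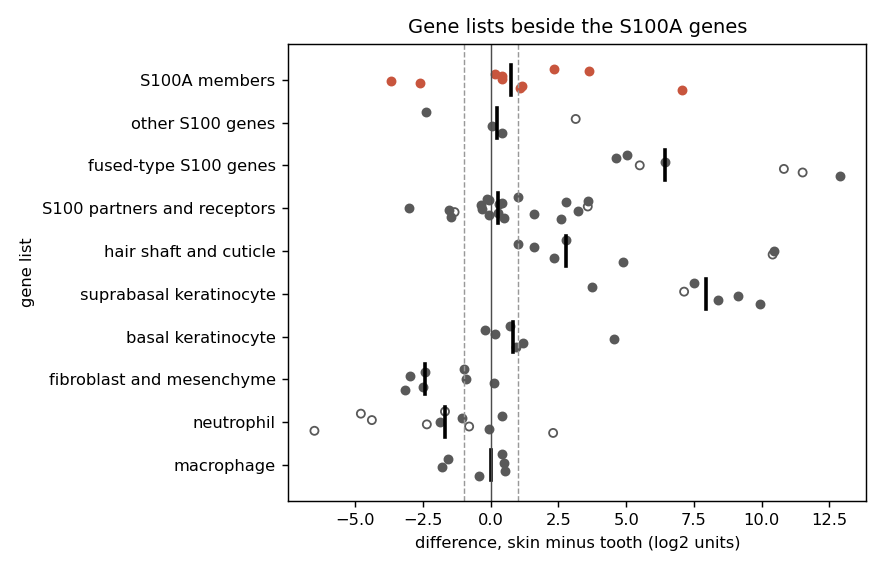
Difference, skin minus tooth, in log2 units (x axis) for each gene measured on at least 1 array, by gene list (y axis), with filled points for genes above background on both arrays, open points for genes above it on 1 array, a black bar at each list's median and dashed lines at 2-fold. The S100A members spread from -3.66 to 7.06 around a median of 0.74, the hair and suprabasal lists lie wholly above 0, and 7 of the 11 neutrophil genes lie beyond the lower dashed line.

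In order of the difference, the members ran S100a3, S100a14, S100a16, S100a6, S100a4, S100a10, S100a11, S100a13, S100a8 and S100a9. A shift of a whole array cancels between neighbours in this order. S100a16 holds its place by its brighter probe, since the other probe, at 1.10, would put it below S100a6 at 1.17. With the brighter probe, the gap from S100a3 to S100a14 was 3.41, that from S100a14 to S100a16 was 1.29, and that from S100a13 to S100a8 was 2.77, where the error model gave each gap an SD of 0.29. The neighbours S100a6 and S100a4, S100a10 and S100a11, and S100a11 and S100a13 differed by 0.09, 0.00 and 0.26, each less than that SD. The gap between S100a8 and S100a9, partners in one complex, was 1.04.

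The order of the members along chromosome 3 was set beside these differences. In mm9, 8 of them lay within 168.1 kb, and S100a11 and S100a10 followed after a gap of 2833.5 kb. From the S100a13 probe at chr3:90328442-90328501 the next were S100a14 at 4.0 kb, S100a16 at 18.4 kb, S100a3 at 78.0 kb, S100a4 at 81.5 kb and S100a6 at 89.7 kb. S100a8 at 145.3 kb and S100a9 at 168.1 kb closed the block. Neighbours by position were not always neighbours by difference. S100a13 and S100a14, 4.0 kb apart, differed by 0.15 and 3.64, and S100a3 and S100a4, 3.5 kb apart, by 7.06 and 1.07. The pair higher in tooth lay side by side at one end of the block.

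**Figure D3:**
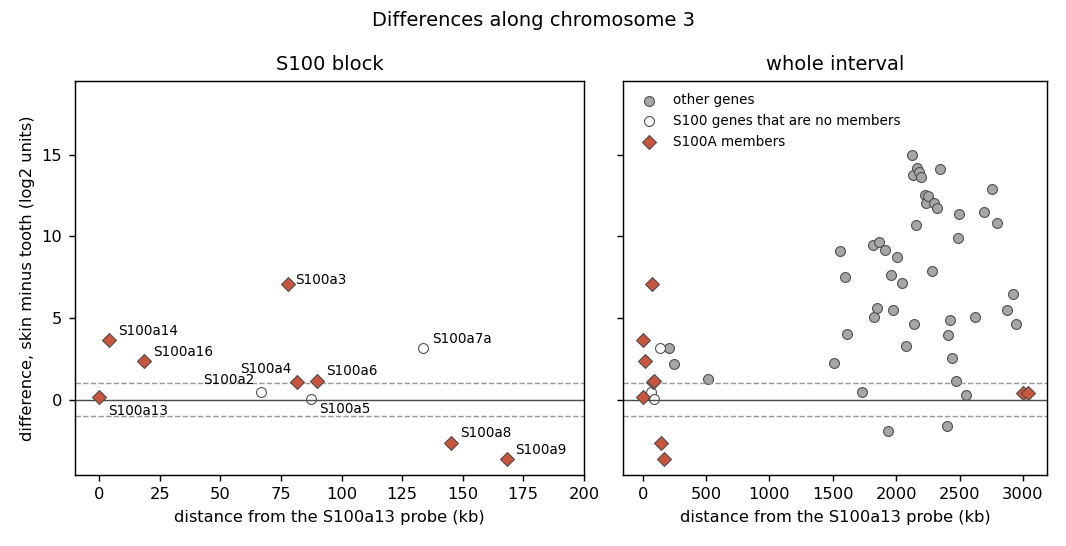
Difference, skin minus tooth, in log2 units (y axis) against distance from the S100a13 probe on chromosome 3 in kb (x axis), for the block of 8 members (left) and for the whole interval to S100a10 (right), with diamonds for members, open circles for other S100 genes, grey circles for the remaining measured genes and dashed lines at 2-fold. S100a8 and S100a9 lie below the lower dashed line at one end of the block, and the genes between the block and S100a11 lie mostly far above the upper one.

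The block also held 3 S100 genes outside the members. S100a5, 87.2 kb along, differed by 0.06 and was dim, with a signal of 81.9 in tooth and 54.9 in skin. S100a7a, 133.5 kb along and next to S100a8, ran the other way from it. Its tooth signal was not well above background, and it was higher in skin by at least 2.24-fold. S100a2, added after its values were seen, differed by 0.49 with signals of 40.2 and 36.4. Of the 60 genes other than members in the whole interval, 51 were measured, with a median of 7.14, beside the members' 0.74. With dim values taken as measured, 45 passed 2-fold toward skin and 2 toward tooth. They are mostly genes of the cornified envelope. Lce1a1, a late envelope gene, led toward skin by at least 8776-fold. Sprr3 and Lce3a were the 2 in tooth, and neither was well above background in skin. Lce3a was higher in tooth by at least 2.89-fold. Sprr3 had no bound, since its scaled tooth signal, -3.93, lay below the skin array's lowest signal well above background, -3.73.

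Relatives of the members showed both patterns. The fused-type S100 genes, which join an S100 domain to a long repeat and build the cornified layer and the inner root sheath, were at least 2-fold higher in skin in 7 of 7 cases, with a median of 6.44. Flg, which encodes filaggrin, differed by 12.89 and Tchh, which encodes trichohyalin, by 6.44. Of 7 other S100 genes, 4 were measured. S100a1 differed by 0.43. S100b, known from Schwann cells, melanocytes and cartilage, gave 830 in tooth and 103 in skin and was 5.23-fold higher in tooth. The Schwann cell gene Sox10 ran against S100b, at 3.21, and all 4 melanocyte genes were at least 2-fold higher in skin. S100a7l2, S100g and S100z were above background on neither array.

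Of 22 listed genes for S100 partners, receptors and modifying enzymes, 20 were measured, with a median of 0.28. With dim values taken as measured, 6 passed 2-fold toward skin and 4 toward tooth, where 14.2% and 15.5% of all genes did. Those toward tooth numbered 3 with dim values at their bound. Among the annexins, Anxa1 was higher in skin, at 2.60, while its partner S100a11 lay within 2-fold. Anxa2, the partner of S100a10, differed by 0.48, beside 0.41 for S100a10 itself. The spike-in scaling, which shifted all genes by -0.63, turns the sign of both, so no direction is given for them. Ahnak, a scaffold bound by the complex of S100a10 with annexin A2, was higher in skin at 1.59, and Anxa6 was higher in tooth at -1.48. Of the listed peptidylarginine deiminases, 2 were higher in skin like S100a3. Padi3 gave 811 in tooth, 3612 in skin and a difference of 2.79, and Padi4 differed by 3.60, whereas Padi1 differed by 0.40.

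The cargoes of S100a13 parted. Fgf1 was higher in tooth, with signals of 2588 and 205 and a difference of -3.03, and Il1a, dim in tooth, was higher in skin by at least 2.77-fold. Receptors of calprotectin were dim or divided. Tlr4 had a signal of 35.3 in tooth, was dim in skin and was higher in tooth by at least 1.09-fold. Ager, the receptor for advanced glycation end products, was above background on neither array. Bsg, another receptor of S100a9, was higher in tooth at -1.55, and Cd36, which takes up fatty acids carried by calprotectin, was higher in skin at 3.24.

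The bases before the start of transcription are shown for 3 genes at the ends of the range, S100a3, S100a8 and S100a9. They come from RefSeq in the build GRCm38.p6, whose coordinates must not be read against the mm9 ones above, and each holds the 250 bases before a start. The motifs and the windows to print were chosen after the values and sequences were seen. Capitals mark TATAAA, the TATA box, or TTNNGNAA, a loose form of the site bound by C/EBP factors, on either strand.
S100a3, chr3:90588313-90588562, plus strand: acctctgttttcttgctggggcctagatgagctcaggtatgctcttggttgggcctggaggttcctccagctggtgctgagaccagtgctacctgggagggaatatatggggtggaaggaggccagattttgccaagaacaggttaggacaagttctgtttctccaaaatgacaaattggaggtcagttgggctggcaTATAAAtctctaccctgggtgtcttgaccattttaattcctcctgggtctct
S100a8, chr3:90668821-90669070, plus strand: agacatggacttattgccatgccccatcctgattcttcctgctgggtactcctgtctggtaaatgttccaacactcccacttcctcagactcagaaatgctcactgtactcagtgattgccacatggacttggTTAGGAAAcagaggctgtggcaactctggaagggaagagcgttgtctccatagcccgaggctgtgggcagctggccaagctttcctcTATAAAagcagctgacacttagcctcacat
S100a9, chr3:90695722-90695971, minus strand: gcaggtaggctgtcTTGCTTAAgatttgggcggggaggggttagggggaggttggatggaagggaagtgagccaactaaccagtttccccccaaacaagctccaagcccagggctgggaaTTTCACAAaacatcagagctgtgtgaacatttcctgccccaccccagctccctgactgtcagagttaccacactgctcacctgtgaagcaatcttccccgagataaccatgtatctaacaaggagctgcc
RefSeq windows were found for 8 of the 10 members, 12 in all, with 4 starts for S100a3. Which of these 4 starts was used in tooth or skin was not tested. No entry was found for S100a10 and S100a14. TATAAA was in 3 of the 12 windows, 30 bases before the start of S100a8, 31 before that of S100a4 and 52 before 1 start of S100a3, the start printed. It was in 12.4% of 32851 mouse windows, searched likewise over the 250 bases before each start. TTNNGNAA was in 4 of the 12, 117 bases before S100a8, 236 and 130 bases before S100a9, and before 2 starts of S100a3, and in 36.8% of all windows. TGANTCA, the motif of AP-1, was in 2 of the 12, S100a16 and S100a11, and in 6.75% of all. These matches describe the letters and not binding.

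Scaling set the count of members above 2-fold in skin. All genes shifted together when the arrays were scaled by another rule, by -0.25 with the median scaling and by -0.63 with the 8 spike-ins above background on both arrays. The members at least 2-fold higher in skin then numbered 3 with either, S100a3, S100a14 and S100a16 by its brighter probe, and the share over all genes was 11.6% and 9.03%. Either shift takes the other S100a16 probe, at 1.10 with the main scaling, below 2-fold. The 2 higher in tooth stayed 2, where the share over all genes was 20.1% and 32.4%. S100a3 stayed between 6.42 and 7.07 and S100a14 between 3.02 and 3.66 over every setting that was run.

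**Figure D4:**
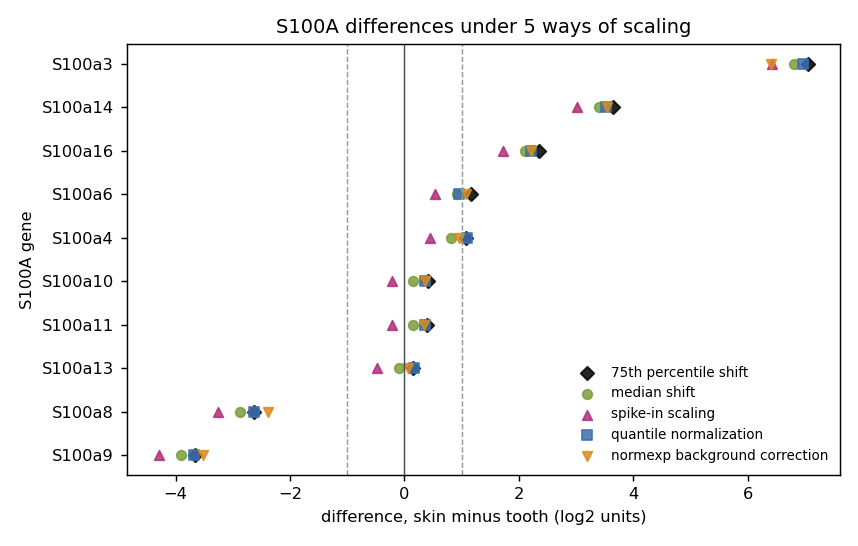
Difference, skin minus tooth, in log2 units (x axis) of each S100A gene (y axis) under 5 ways of scaling or background correction, with 1 symbol each and dashed lines at 2-fold. The spike-in scaling lowers every member by the same 0.63. This takes S100a6 and S100a4 below 2-fold and S100a10, S100a11 and S100a13 below 0. S100a3, S100a14, S100a16 by its brighter probe, S100a8 and S100a9 keep their side.

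As a check of the tissue labels, all 4 ameloblast genes and all 4 odontoblast and bone genes were at least 2-fold higher in tooth, and no ameloblast gene was above background in skin. The suprabasal, hair and melanocyte lists lay toward skin, and so did all 4 muscle genes. Probes above background were 56.7% of all in tooth and 52.5% in skin, and the 75th percentile of the signal was 428 and 276.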

How the data were processed

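Deposited spot values were background-subtracted intensities from Agilent Feature Extraction (version 10.7.3.1 per the file headers), read for 62976 spots per array. The authors also deposited a table in which each value was a ratio of that intensity to 1 factor per array (430.7 tooth, 274.5 skin), used as an alternative only. Spots were averaged per probe on the log2 scale, and each array's 75th percentile over non-control probes was subtracted. The brightest probe stood for a gene. Every member probe had 1 spot. A gene counted as measured when the scanner software called over 50% of its spots well above background in tooth, skin or both. Where the other array was dim, a fold is a bound against that array's lowest signal well above background (-4.52 tooth, -3.73 skin, scaled log2) or, where higher, the probe's own dim value. Among probes with at least 8 spots, the median SD between spots was 0.08 and 0.09, which gives a difference an SD of 0.12 from the scatter of spots. The number of arrays limits the precision.

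Members, lists, partners and markers were chosen with earlier results of these data known. Named genes were the members, listed genes and the largest differences in the chromosome 3 interval. Alternatives were other scalings, normexp background correction (offset 50), dim-probe filters and probe choices, run in Python 3.11.15 and limma 3.58.1 (R 4.3.3). Only the main scaling, choice of probe and 2-fold call were tested on simulated data, with every probe taken as detected. Accessions named 27234 of 33182 named probes (82.1%) through RefSeq, and array names were kept otherwise. Protein sequences were not analysed here.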

Additional observations from a re-analysis of the deposited data

How the results depend on the processing

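Against 5 with the main scaling, 3 members passed 2-fold toward skin with the median and 3 with the spike-in scaling. The members' median moved from 0.74 to 0.49 and 0.11, and the partners' from 0.28 to 0.035 and -0.34. The neutrophil median of -1.69 became -1.93 with the median shift, -2.31 with spike-ins, -1.93 with quantile normalization, -0.25 with normexp, -1.36 without a filter, -0.56 with genes above background on both arrays, -1.36 with the lenient detection call and -0.94 with dim values at their bound. The median of the chromosome 3 genes, 7.14, became 6.89 with the median shift, 6.51 with spike-ins, 5.52 with normexp, 5.28 without a filter, 4.74 with genes above background on both arrays and 5.58 with the lenient call.

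S100a4 also fell below 2-fold with normexp (0.95) and with the mean over its probes (0.98), and S100a6 with quantile normalization (0.95). The causes were not tested. No replicate could be left out with 1 array per tissue, and no paired analysis was possible because each tissue had 1 array. Lowest and highest spots were not compared, since each member probe had 1 spot. Dim signals limit S100a2, S100a5, S100a7a, Tlr4 and most neutrophil genes to bounds or values near background.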
